A study of Mus musculus with 4 samples.

Results

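Neuronal marker genes were followed in primary mouse oligodendrocytes with and without the long noncoding RNA lncOL1. The set holds 10 genes, chosen by symbol: Gap43, Ina, Nefl, Nefm, Dcx, Stmn2, Snap25, Syt1, Gad1 and Syp. All 10 were found among the 23435 gene symbols kept. The cells were mouse primary oligodendrocytes of a mixed strain background, grown from precursor cells and differentiated for 1 day with T3, a thyroid hormone that starts oligodendrocyte differentiation in culture. The study compared 2 control (Ctrl) samples with 2 knockout (lncOL1KO) samples, to find genes whose expression differs when lncOL1 is lost. Both controls share 1 genotype label, which lists lncOL1+/+ together with lncOL1+/- and assigns neither to a sample. The knockouts are lncOL1-/-. The labels do not tie the samples to separate animals or cultures, so p-values here reflect the spread among these 4 samples alone, and that spread may be technical. The deleted stretch of the lncOL1 locus is not described in the labels.

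Neurons are told from glia by proteins of their long processes and of their synapses. Neurofilament subunits (Nefl, Nefm and alpha-internexin, encoded by Ina) stiffen axons, Gap43, Stmn2 and Dcx act in growing processes and migrating young neurons, and Snap25, Syt1 and Syp belong to the machinery of synaptic vesicle release. Gad1 encodes an enzyme that makes the inhibitory transmitter GABA. Several of these genes are also known to be transcribed in cells of the oligodendrocyte lineage, so a transcript from this set is not by itself a sign of a neuron. In bulk RNA, fewer cells of a type and less RNA per cell cannot be told apart.

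Levels are FPKM, a measure of fragments that is divided by transcript length and by the mapped total, and can therefore be compared between genes. Read counts are not in the files used, and the error of a value is judged from how far the 2 samples of its group lie apart. For the SEs, intervals and p-values, limma also draws on the spread of the other genes tested. Summed FPKM ran from 373484 to 383128 per sample, and relative depths estimated from the lowest values ran from 0.95 to 1.18 against control replicate 1. lncOL1 (9630013A20Rik) was at 28.9 and 34.0 FPKM in the controls and at 5.54 and 5.06 in the knockouts (log2 fold change -2.36, SE 0.097, limma adjusted p = 0.000389), in the direction its labels give. The cells carried the transcripts of their label: Cnp, which encodes an enzyme of myelinating cells, lay between 1699.8 and 1943.5 FPKM in the 4 samples. The astrocyte gene Gfap lay between 196.3 and 236.6 FPKM.

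The 10 genes differed widely in level. Gap43, which encodes a growth cone protein, was the most abundant, with a mean of 79.8 FPKM over the 4 samples, above 95.02% of the 17397 genes detected in any sample. Ina, Syp and Dcx followed at means of 15.4, 11.95 and 10.4 FPKM. Snap25 was at 1.38, and the other 5 were under 1 FPKM: Nefm at 0.725, Syt1 at 0.532, Nefl at 0.403, Gad1 at 0.117 and Stmn2 at 0.106. Stmn2 lay above 19.0% of the detected genes.

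Several neighbours in that order could not be separated. The 4-sample ranges of Gap43 and Ina did not overlap, nor did those of Dcx and Snap25, of Snap25 and Nefm, or of Nefl and Gad1. Those of Ina and Syp, Syp and Dcx, Nefm and Syt1, Syt1 and Nefl, and Gad1 and Stmn2 did. The step from Dcx to Snap25 was the largest between neighbours, at 7.49 times, and it sets apart the 4 genes at about 10 FPKM and more from the other 6.

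**Figure D1:**
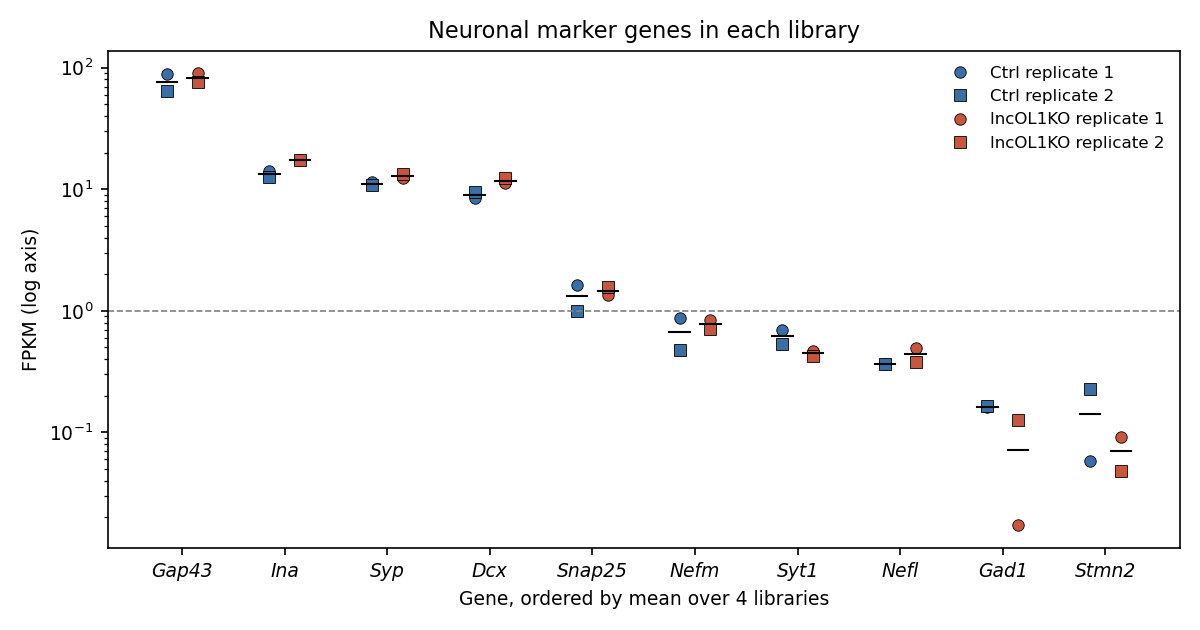
FPKM of each of the 10 genes (log axis) in control replicates (blue) and knockout replicates (red), with circles for replicate 1, squares for replicate 2 and bars for group means. The dashed line is 1 FPKM: Gap43, Ina, Syp and Dcx lie above it in every sample, Snap25 lies just above it and Nefm, Syt1, Nefl, Gad1 and Stmn2 lie below it.

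None of the 5 genes that could be tested was called different between knockout and control. The 5 genes whose mean reached 1 FPKM were tested among 11361 genes, by limma on log2(FPKM + 1) with Benjamini-Hochberg adjustment, and 0 of the 5 had an adjusted p under 0.05. Of all genes tested, 0.528% were called higher and 0.783% lower by the same rule. At an unadjusted p under 0.05, 3 of the 5 were higher (Ina, Dcx and Syp) and 0 lower, against 7.13% and 6.58% of all genes tested. All 5 had a positive log2 fold change, as 51.4% of all genes tested did, with a median of 0.18 beside 0.005. Gap43 and Snap25 turned negative with a sample left out, and the median was 0.292 without control replicate 1. The 5 genes under 1 FPKM did not pass the filter, and their values are given below as a description.

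Of the 3 neurofilament genes, Ina alone had enough RNA to be tested, and both of its knockout samples lay above both controls. Ina, which encodes the neurofilament subunit alpha-internexin, was at 14.2 and 12.6 FPKM in the controls and at 17.3 and 17.4 in the knockouts. The groups did not overlap, and the knockout samples were nearly equal to each other. Its log2 fold change was 0.35 (SE 0.079, 95% interval 0.16 to 0.54, limma adjusted p = 0.109). Ina lies on the plus strand of chromosome 19 (mm10, 47014698 to 47024346), and 456 bases of its exons are also exonic, in GENCODE, for Nt5c2 on the minus strand, a gene of nucleotide metabolism. No label or header gives the strand setting of the counting, so reads from the shared bases cannot be told apart. Nt5c2 itself was at 9.69 and 9.36 FPKM in the controls and 10.3 and 9.60 in the knockouts (log2 fold change 0.06, limma adjusted p = 0.831).

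The authors' deposited table, made with Cuffdiff, has 1 pooled value for each group. For Ina it has 10.5 FPKM for the controls and 13.1 for the knockouts, with a log2 fold change of 0.33 and q = 0.160. The region named for Ina there starts at 46886831, which is the listed start of the overlapping gene Nt5c2, and in the sample tables at 47014698.

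Nefl and Nefm, the light and medium neurofilament subunits, were both low. Nefl was at 0.365 and 0.368 FPKM in the controls and 0.495 and 0.383 in the knockouts. Its groups did not overlap, but knockout replicate 2 lay just above the controls. Nefm was at 0.866 and 0.475 FPKM in the controls and 0.847 and 0.712 in the knockouts, so the control samples enclosed both knockouts. With genes down to a mean of 0.3 FPKM admitted to the fit, the log2 fold changes were 0.07 for Nefl and 0.10 for Nefm (limma adjusted p = 0.829 and 0.830). The 2 genes are neighbours on chromosome 14 (68083884 to 68087737 and 68119545 to 68125004), on the chromosome of lncOL1 but 16.4 and 16.3 Mb away from it. In GENCODE a longer Nefm model runs across Nefl on the other strand, with 1108 shared exon bases. The region listed for Nefm in the sample tables does not reach Nefl, so those bases lie outside it. Reads from those bases that were counted for Nefl cannot be told apart by strand.

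Of the genes of growing processes and young neurons, Dcx had higher values in both knockouts, Gap43 varied within the groups, and Stmn2 was close to the lower limit of the data. Dcx encodes doublecortin, a microtubule-binding protein of migrating neurons. It was at 8.45 and 9.49 FPKM in the controls and 11.2 and 12.3 in the knockouts. The groups did not overlap, and the gap between them was larger than the distance within either. Its log2 fold change was 0.36 (SE 0.086, 95% interval 0.15 to 0.56, limma adjusted p = 0.129). The authors' deposited table marks Dcx as significant, with 9.83 FPKM in control and 12.6 in knockout (log2 fold change 0.36, q = 0.0227). There, 1.74% of the genes with a completed test were significant and higher, and Dcx was so marked, 1 of the 7 marker genes with a completed test.

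Gap43 was at 89.0 and 64.7 FPKM in the controls and 89.8 and 75.6 in the knockouts. The groups overlapped, and replicate 1 was the higher sample in both. Its log2 fold change was 0.12 (SE 0.156, limma adjusted p = 0.833), with a 95% interval of -0.26 to 0.49 that includes changes as large as those of Ina and Dcx. Without control replicate 2 it was -0.11 and without knockout replicate 1 it was -0.01, so its direction was not determined. Stmn2, which encodes a regulator of microtubule dynamics in axons, was at 0.0583 and 0.226 FPKM in the controls and 0.0921 and 0.0485 in the knockouts. The controls lay on both sides of knockout replicate 1, and at this level no difference was detectable.

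The genes of vesicle release differed in direction, and none was called. Syp, which encodes the vesicle membrane protein synaptophysin, was at 11.4 and 10.9 FPKM in the controls and 12.3 and 13.3 in the knockouts. The groups did not overlap, and the log2 fold change was 0.18 (SE 0.075, 95% interval 0.004 to 0.36, limma adjusted p = 0.355). The authors' deposited table gives 0.10 with q = 0.848 for Syp. In GENCODE, 875 exon bases of Syp are shared with the antisense gene Gm14703, for which no value was used here.

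Snap25, a membrane fusion protein of nerve terminals, was at 1.63 and 1.001 FPKM in the controls and 1.34 and 1.57 in the knockouts. The controls enclosed the knockouts, and the log2 fold change was 0.10 (SE 0.150, 95% interval -0.26 to 0.46, limma adjusted p = 0.866). It was -0.10 without control replicate 2. Syt1, the calcium sensor of transmitter release, was at 0.695 and 0.538 FPKM in the controls and 0.467 and 0.426 in the knockouts. Both knockouts were thus below both controls, opposite in direction to Syp, at a level under the filter. With the filter at 0.3 FPKM its log2 fold change on the log2(FPKM + 1) scale was -0.16 (limma adjusted p = 0.568). The authors' deposited table gives -0.47 with q = 0.549, on a scale without the added 1, so the 2 values are not alike. The ratio of mean FPKM, knockout over control, was 0.725 here.

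Gad1 was at 0.162 and 0.164 FPKM in the controls and 0.0172 and 0.126 in the knockouts. The groups did not overlap, but the knockout samples differed more from each other than knockout replicate 2 did from the controls. The authors' deposited table lists Gad1 with the status NOTEST, as it does Nefl and Stmn2.

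Across the 10 genes, 4 had both knockout samples above both controls (Ina, Dcx, Syp and Nefl) and 2 had both below (Syt1 and Gad1). Among the 14868 genes above 0 in all samples, 23.6% and 19.5% did so. No sample was extreme throughout: control replicate 2 was the lowest sample for 5 of the 10 genes and the highest for 2. The summed level of the 10 genes was 126.7 and 100.5 FPKM in the controls and 133.8 and 121.8 in the knockouts, and most of it was Gap43. The summed level of the 5 genes under the filter was 2.15 and 1.77 in control and 1.92 and 1.70 in knockout.

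**Figure D2:**
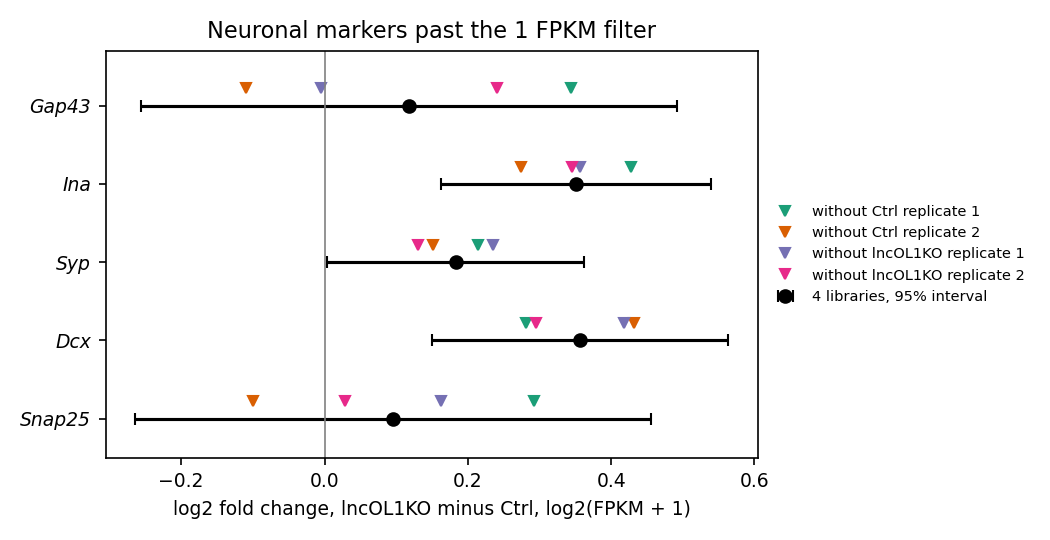
Log2 fold change (knockout minus control, log2(FPKM + 1) scale) of the 5 tested genes, with black points and 95% intervals from limma on all 4 samples and triangles for the value without each sample. Ina, Syp and Dcx stay above 0 whichever sample is left out, while Gap43 and Snap25 fall on both sides of 0.

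Dcx and Syp lie on the X chromosome, so the sex composition of the samples was looked at. Xist, the RNA of the inactive X, was at 20.1 and 23.7 FPKM in the controls and 16.9 and 19.9 in the knockouts (log2 fold change -0.24, limma adjusted p = 0.421). In the authors' deposited table its q was 0.000641. The Y-linked genes Ddx3y, Kdm5d, Eif2s3y and Uty were present in all 4 samples, with log2 fold changes of -0.03, 0.16, 0.15 and 0.03. The part of sex composition in the Dcx and Syp values was not tested.

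The upstream sequences of the 3 tested genes whose groups did not overlap are shown to let their starts be compared. RefSeq promoter sequences (GRCm38.p6, the assembly of mm10) were matched for 5 of the 10 genes, these 3 among them. Each line runs 5′ to 3′ on the strand of the gene, ends where the first exon annotated in GENCODE begins or at the RefSeq start, and has CG dinucleotides in capitals.
Ina, chr19:47014431-47014680, plus strand: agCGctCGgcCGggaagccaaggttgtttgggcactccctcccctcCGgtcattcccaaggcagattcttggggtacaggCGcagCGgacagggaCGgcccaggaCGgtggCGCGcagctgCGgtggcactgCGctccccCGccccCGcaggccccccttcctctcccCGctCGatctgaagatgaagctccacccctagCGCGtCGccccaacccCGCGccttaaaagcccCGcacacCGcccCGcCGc
Dcx, chrX:143933312-143933469, minus strand: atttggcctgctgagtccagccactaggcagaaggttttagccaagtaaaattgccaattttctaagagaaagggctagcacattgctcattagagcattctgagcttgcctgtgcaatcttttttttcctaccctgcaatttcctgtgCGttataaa
Syp, chrX:7638330-7638470, plus strand: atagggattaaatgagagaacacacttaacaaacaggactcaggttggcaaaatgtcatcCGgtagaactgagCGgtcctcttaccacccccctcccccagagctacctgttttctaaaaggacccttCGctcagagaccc

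The 3 starts differed in base composition. In the 250 bases before the RefSeq start, Ina had 25 CG dinucleotides, Syp 11 and Dcx 3, where the median of all 32851 RefSeq windows is 6. The stretches shown hold 25, 3 and 1 of these, since the rest of the Syp and Dcx windows overlaps exons annotated in GENCODE and is not shown. TATAAA, on either strand, was in the Dcx window, as in 12.4% of all windows, and not in those of Ina or Syp. CCGCCC, on either strand, was in those of Ina and Syp and not in that of Dcx, and 32.7% of all windows held it. In Syp it was not within the stretch shown. TTCAGCACC and GGACAGCGC, letters taken from the 2 ends of the element that the repressor REST binds, were in 0 of the 7 windows of the 5 matched genes on either strand, and in 0.301% and 0.304% of all windows. That says only that these letters are not in these windows. REST is known for silencing neuronal genes outside neurons. Rest itself was at 5.47 and 4.70 FPKM in the controls and 5.15 and 4.498 in the knockouts (log2 fold change -0.06, limma adjusted p = 0.868), and its cofactor Rcor2 was at 14.7, 13.2, 14.4 and 16.1 FPKM. Of 9 tested genes of the REST complex, 0 were called by limma, against 1.31% of all genes tested. At an unadjusted p under 0.05 there were 0, against 7.13% higher and 6.58% lower. With 9 genes, counts of 0 cannot be told apart from these shares.

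The split between abundant and near-absent transcripts ran through the wider neuronal genes too. Of 135 further genes in 9 neuronal lists, 85 reached a mean of 1 FPKM (63.0%), against 48.5% of all genes. A mean under 0.1 was found for 26 of the 135, a smaller share than the 9276 of all 23435 genes. Genes of the neuronal cytoskeleton and growth cone were mostly abundant, with 13 of 15 past 1 FPKM, led by Marcksl1 (514.5 to 578.7 FPKM), Map1b (165.1 to 205.5) and Basp1 (118.3 to 145.7). Presynaptic genes passed in 23 of 25 cases, led by Syt11 (184.7 to 221.5), Rab3a (86.5 to 98.0) and Sv2a (78.4 to 84.7). By contrast, 4 of 17 GABAergic and 0 of 9 glutamatergic genes passed. Bcl11b led the glutamatergic genes at 0.197 to 0.355 FPKM.

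Several genes of finished or differentiating neurons were near 0, named here after their values were seen. Rbfox3, which encodes the neuronal nuclear antigen NeuN, had a mean of 0.114 FPKM. In its list of RNA-binding genes, 7 of 10 reached a mean of 1 FPKM, with Elavl3 at 100.3. Map2, Mapt and Tubb3 of the cytoskeletal list, also named after their values were seen, had means of 99.2, 45.0 and 27.7 FPKM. The vesicular glutamate transporters Slc17a7 and Slc17a6 were at 0 in 3 and 2 of the 4 samples, with means of 0.0147 and 0.00807. Neurod1 was at 0 in every sample, while 8 of the 16 genes of its neuroblast and proneural list reached a mean of 1 FPKM. Neurod2 and Neurod6, like Neurod1 transcription factors of neuronal differentiation, were listed at 0 in every sample too. The vesicular GABA transporter Slc32a1 had a mean of 0.0292. Of the cell types compared, the endothelial, pericyte and fibroblast list was also low, with 0 of 14 genes at 1 FPKM, while 13 of 14 astrocyte genes passed.

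**Figure D3:**
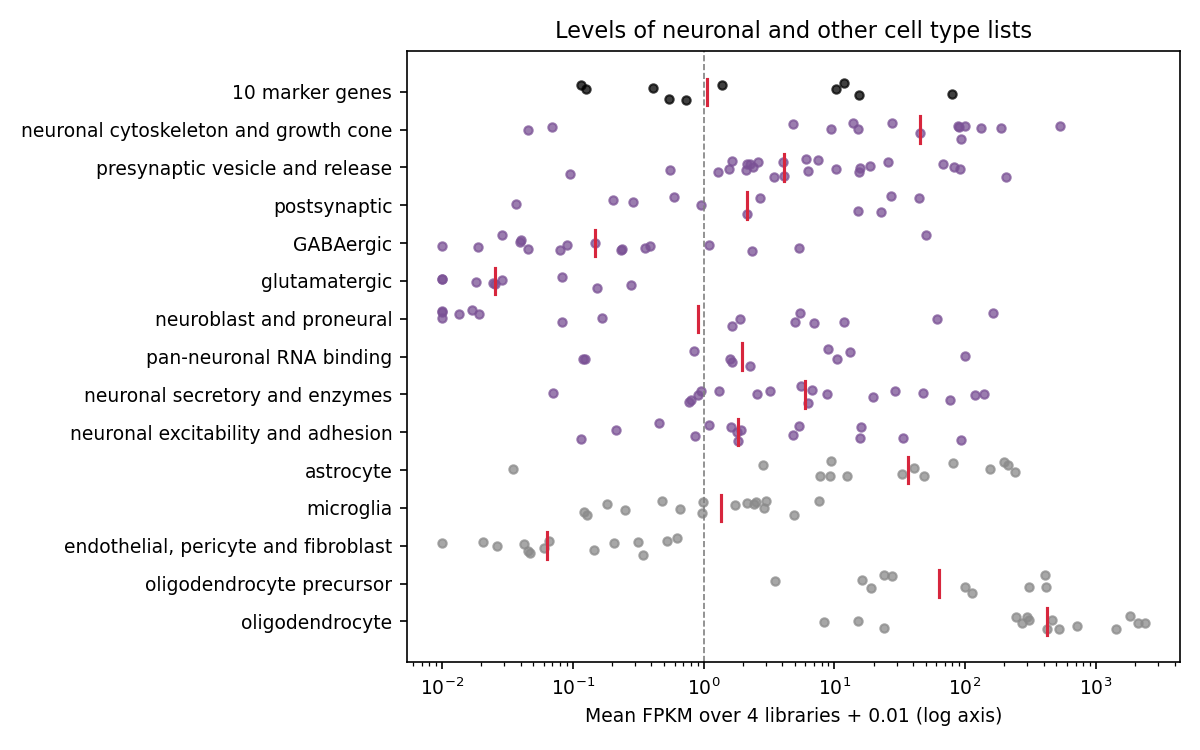
Mean FPKM over the 4 samples, plus 0.01, on a log axis, for each gene (points) of the 10 markers (black), the 9 neuronal lists (purple) and lists of other cell types (grey), with a red bar for each list's median and a dashed line at 1 FPKM. Cytoskeletal and presynaptic genes lie mostly above the line, glutamatergic genes all lie below it, and oligodendrocyte genes lie at the upper end.

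Between knockout and control, differences in the wider neuronal genes lay in both directions. Of the 85 tested, 1 was called higher and 1 lower (2.35%, against 1.31% of all genes tested in either direction), and at an unadjusted p under 0.05 there were 22 higher (25.9%, against 7.13%) and 11 lower (12.9%, against 6.58%). Their median log2 fold change was 0.09, beside 0.005 over all genes tested, with 53 positive and 32 negative. The authors' deposited table completed a test for 94 of the 135. It marks 11 of them as significant and higher (11.7%, against 1.74% of all genes with a completed test) and 9 as significant and lower (9.57%, against 4.04%).

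Cplx1, which encodes complexin, a protein that clamps and primes vesicle fusion, was the gene called higher. It was at 2.62 and 2.31 FPKM in the controls and 4.18 and 4.70 in the knockouts (log2 fold change 0.65, SE 0.096, limma adjusted p = 0.0332), and both knockouts were above both controls. The authors' deposited table gives 0.74 with q = 0.00480. Of the 23 tested presynaptic genes, Cplx1 included, 19 had a positive log2 fold change, beside 51.4% of all genes tested. At an unadjusted p under 0.05, 6 were higher (26.1%, against 7.13%) and 2 lower (8.70%, against 6.58%). The most abundant, Syt11, Rab3a and Sv2a, had -0.21, 0.05 and -0.08, none of the 3 past the limma test (adjusted p = 0.262, 0.867 and 0.704). The authors' deposited table marks 4 of 24 presynaptic genes with a completed test as significant and higher (16.7%, against 1.74% of all genes with a completed test). It marks 2 as significant and lower (8.33%, against 4.04%), Syt11 (q = 0.00386) and Sv2a (q = 0.0387).

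Elavl3, which encodes an RNA-binding protein of neurons, was the gene called lower. It was at 119.0 and 117.2 FPKM in the controls and 85.1 and 79.9 in the knockouts (log2 fold change -0.51, SE 0.070, limma adjusted p = 0.0263). Both control samples were nearly equal, and both knockouts lay well below them. The other 6 tested RNA-binding genes had positive values, with Nova1 at 0.26 and Nova2 at 0.11 (limma adjusted p = 0.268 and 0.713). The authors' deposited table marks Nova1 as significant and higher (q = 0.00931). With each sample left out in turn, which leaves 1 sample in its group, the log2 fold change was 0.58 to 0.72 for Cplx1 and -0.56 to -0.47 for Elavl3. Both calls were lost each time, at limma adjusted p of 0.143 to 0.278 and 0.130 to 0.218.

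In the other neuronal lists with tested genes 0 were called by limma, with medians from -0.11 to 0.19 on the log2 scale. Of 8 tested neuroblast and proneural genes, 7 had a negative log2 fold change, and 3 were lower at an unadjusted p under 0.05 (37.5%, against 6.58% of all genes tested) and 0 higher. Stmn1, a relative of Stmn2 that is known from dividing cells, was at 77.7 and 65.3 FPKM in the controls and 52.4 and 49.0 in the knockouts (log2 fold change -0.48, limma adjusted p = 0.0851), while the authors' deposited table marks it as significant (q = 3.19e-07). Sox4 had -0.13 and Cd24a -0.05 (limma adjusted p = 0.533 and 0.871). Of 11 tested genes of excitability and adhesion, 9 were positive, beside 51.4% of all genes tested, and 5 were higher at an unadjusted p under 0.05 (45.5%, against 7.13%) and 0 lower. Ncam1, the neural cell adhesion molecule, was at 86.3 and 86.0 FPKM in the controls and 101.3 and 96.1 in the knockouts (log2 fold change 0.19, limma adjusted p = 0.278), Nrcam had -0.01 and the potassium channel gene Kcna2 -0.17 (limma adjusted p = 0.971 and 0.389). The authors' deposited table marks 3 of 13 excitability and adhesion genes with a completed test as significant and higher (23.1%, against 1.74% of all genes with a completed test). It marks 1 as significant and lower (7.69%, against 4.04%), Kcna2 (q = 0.0231).

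In the remaining lists the counts at an unadjusted p under 0.05 stand beside 7.13% higher and 6.58% lower of all genes tested. Of 13 tested cytoskeletal genes, 4 were higher (30.8%) and 2 lower (15.4%). Marcksl1 had a log2 fold change of -0.06, Map1b of -0.20 and Basp1 of 0.19 (limma adjusted p = 0.845, 0.334 and 0.341). Of 13 tested secretory and enzyme genes, 3 were higher (23.1%) and 2 lower (15.4%). Cpe, Uchl1 and Scg5, the most abundant of these, had -0.01, 0.06 and -0.04 (limma adjusted p = 0.964, 0.781 and 0.893). Of 6 tested postsynaptic genes, 1 was higher (16.7%) and 1 lower (16.7%). Gria2, a glutamate receptor subunit, had 0.27, and the scaffold genes Dlg4 and Gphn had 0.08 and 0.03 (limma adjusted p = 0.215, 0.745 and 0.926). Of the 4 tested GABAergic genes, 1 was higher and 0 were lower, and 0 were called by limma.

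**Figure D4:**
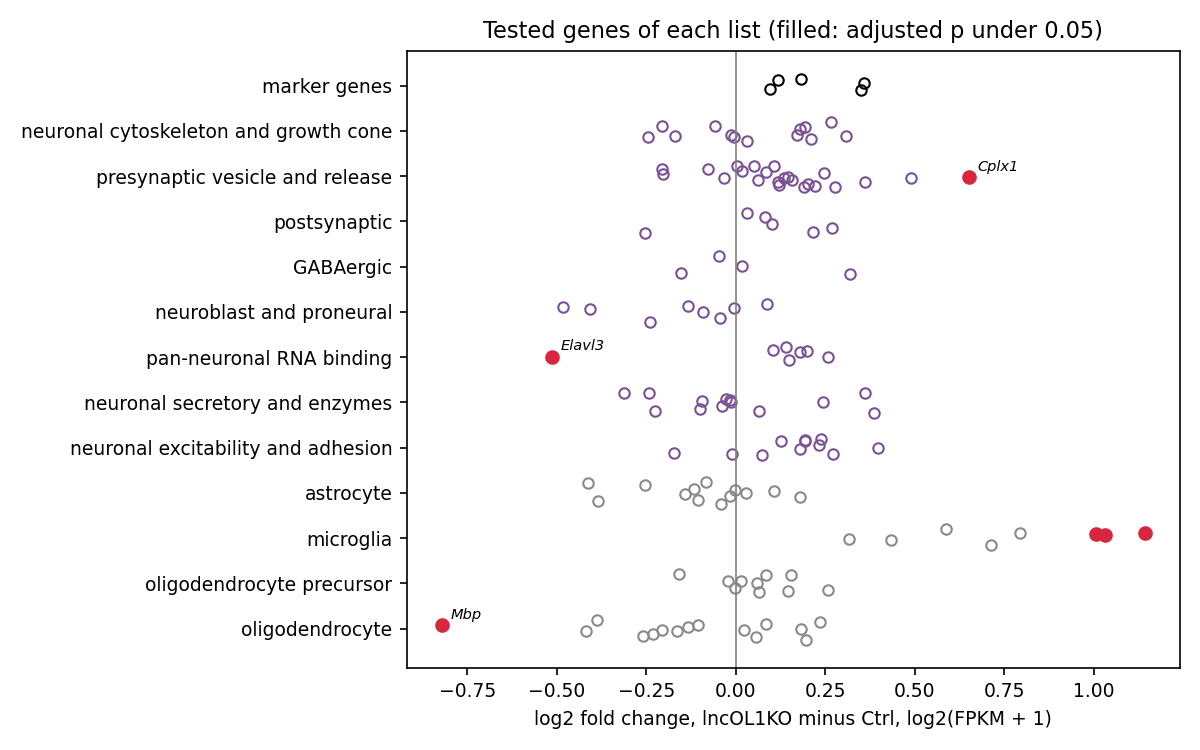
Log2 fold change (knockout minus control, log2(FPKM + 1) scale) of each tested gene of the markers (black), the neuronal lists (purple) and lists of other cell types (grey). Red filled points passed an adjusted p under 0.05 by limma: Cplx1 at 0.65, Elavl3 at -0.51, Mbp at -0.82 and 3 microglial genes, Fcrls, Laptm5 and Tyrobp, between 1.006 and 1.14.

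Markers of other cell types also differed between the groups. The summed level of 16 microglial genes was 19.99 and 22.1 FPKM in the controls and 38.2 and 43.3 in the knockouts. Of the 8 tested, 3 were called higher and 0 lower by limma, against 0.528% and 0.783% of all genes tested, and 13 of the 16 had both knockouts above both controls, against 23.6% of genes above 0 in all samples. The authors' deposited table marks 5 of 12 microglial genes with a completed test as significant and higher (41.7%, against 1.74% of all genes with a completed test). Fcrls and Laptm5 were among the 5 and Tyrobp was not (q = 0.134). The defining microglial genes P2ry12 and Tmem119, named after their values were seen, had means of 0.118 and 0.174 FPKM. Of 13 tested astrocyte genes 0 were called by limma, and 1 was higher and 3 were lower at an unadjusted p under 0.05 (7.69% and 23.1%, against 7.13% and 6.58%), with a summed level of 1109 and 1027 FPKM in the controls and 1062 and 1015 in the knockouts. The authors' deposited table marks 4 of 13 astrocyte genes as significant and lower, Gfap among them (q = 0.0408), and 5 of 15 oligodendrocyte genes, against 4.04% of all genes with a completed test. Mbp, which encodes myelin basic protein, was the 1 gene called among 15 oligodendrocyte genes (log2 fold change -0.82, limma adjusted p = 0.00504). At an unadjusted p under 0.05, 2 of these 15 were higher and 5 lower, and of 10 precursor genes 0 were called and 1 was higher and 0 lower. With each sample left out in turn, the log2 fold change ran from 1.05 to 1.24 for Fcrls, 0.88 to 1.13 for Tyrobp, 0.92 to 1.14 for Laptm5 and -0.83 to -0.81 for Mbp. The limma adjusted p then ran from 0.0204 to 0.111 for Fcrls, 0.0345 to 0.167 for Tyrobp, 0.0642 to 0.111 for Laptm5 and 0.0608 to 0.139 for Mbp. All 4 calls were lost without either knockout replicate, those of Laptm5 and Mbp without either control too, and that of Tyrobp without control replicate 1. The part of these shifts in the values of Ina, Dcx, Syp, Cplx1 and Elavl3 was not tested.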

How the data were processed

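Total RNA of 4 samples was sequenced from TruSeq libraries, per the labels' protocols. CASAVA, TopHat, Cufflinks, Cuffdiff and mm10 stand in the submitters' processing notes, without versions or options. The deposited sample tables give FPKM per gene, computed by the authors. A deposited Cuffdiff table gives pooled FPKM, a log2 fold change with a test score, and p-values and q-values of the authors, per the file headers. These are quoted only as theirs.

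Rows of 1 symbol were summed (23931 rows, 23444 symbols), and 9 symbols lacking an OK status in any sample were dropped. For the 11361 genes whose mean reached 1 FPKM, limma 3.58.1 (R 4.3.3) was run on log2(FPKM + 1), after a check on simulated data. The fit had an expression trend and no covariate. It had 2 residual degrees of freedom and 4.6 prior ones, which come from the spread over all genes tested. Benjamini-Hochberg adjustment was over all 11361 genes. Fold changes on this scale understate those of low genes. Intervals are limma's 95% intervals.

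The marker genes, 16 further lists, and the alternatives were chosen with earlier results of these data known. Named genes are the 10 markers, called genes and up to 3 of the most abundant genes per neuronal list, up to 3 called and up to 3 abundant genes per other list, Rest, Rcor2, Xist and Y-linked genes, and lncOL1. Not every gene this takes from the lists is reported here. All 228 list symbols matched. Alternatives were pseudocount, filter, scaling, variance model, replicate block and samples left out.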

Additional observations from a re-analysis of the deposited data

How the results depend on the processing

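The directions of Ina, Dcx and Syp were the same under all 15 alternatives, with log2 fold changes of 0.27 to 0.43, 0.28 to 0.43 and 0.13 to 0.24. Gap43 and Snap25 changed sign with samples left out: Gap43 ranged from -0.1091 without control replicate 2, through -0.0054 without knockout replicate 1, to 0.3441 without control replicate 1, and Snap25 at -0.1002 without control replicate 2; the cause was not tested. The median of the tested markers was 0.1517 to 0.292 with each sample left out. The count of markers called was 0 in each direction in all alternatives but 1. That was the replicate block, where Dcx passed (adjusted p = 0.0477) and 1 marker was called higher.

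Over all genes, 60 were called higher and 89 lower. The counts were 1 and 3 with no filter on low values, 155 and 200 with robust estimation, 158 and 183 with the replicate block, and 11 to 16 and 5 to 26 with each sample left out, which leaves 1 sample in its group. For the wider neuronal genes, where 1 was called higher and 1 lower, 2 were higher with a pseudocount of 0.1 and with a minimum of 0.3 FPKM, 2 were lower with a minimum of 5 FPKM, 2 and 2 were called after TPM scaling, 3 and 3 with robust estimation, 3 and 2 with the replicate block, and 0 and 0 both with no filter and with each sample left out. With no filter the adjusted p was 0.141 for Cplx1, 0.0855 for Elavl3, 0.06 for Fcrls, 0.079 for Laptm5, 0.0855 for Tyrobp and 0.14 for Mbp, so all 6 calls ended, with the same log2 fold changes.

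Same-numbered samples did not deviate together (r = -0.05 across 11361 genes, which are not independent replicates), and nothing in the labels pairs them. Whether they share more than a number, such as a culture or a preparation, is not known from the labels. The files give no counts, and values under 0.1 FPKM could not be given an interval.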
